A study of Mus musculus with 18 samples.

Results

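The transcripts described here are the calcium cycling genes of the cardiomyocyte: Ryr2, Casq2, Trdn, Jph2, Atp2a2, Pln, Cacna1c, Cacnb2, Slc8a1 and Camk2d. They were chosen by name as known parts of this pathway, with earlier results of these data in view, and make up 10 of the 30583 genes in the count table. The study sequenced poly(A) RNA from 18 hearts of male C57BL/6JR mice aged 12 weeks, with 3 mice in each of 6 groups and 1 library a mouse. Infarction was produced by tying off the left anterior descending branch of the coronary arteries, and hearts were taken after 10 min or after 1, 6, 24 or 72 h. Sham mice went through surgery in which the thread was placed at the artery and left untied. All mice shared the anaesthesia with sodium pentobarbital and, at the end, isoflurane. RNA came from the myocardium of the infarcted left ventricle, and the labels also name cardiomyocytes as the cell type. No step that isolates cells is described, and the values below are read as those of whole tissue.

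In a cardiomyocyte, the L-type calcium channel in the surface membrane opens with each action potential, and the small calcium entry opens ryanodine receptors on the sarcoplasmic reticulum, which release the bulk of the calcium that drives contraction. Relaxation follows when the SERCA pump, held back by phospholamban, returns calcium to the store and the sodium-calcium exchanger carries the rest out of the cell. The kinase CaMKII phosphorylates several of these proteins and so tunes release and uptake. Loss of SERCA activity and altered exchanger activity are well known features of the failing heart.

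In GENCODE M21 (GRCm38, the assembly also called mm10), the store and release genes are Ryr2 at chr13:11553102-12106945 on the minus strand, Casq2 at chr3:102086415-102146514 on the plus strand, Trdn at chr10:33080554-33476709 on the plus strand and Jph2 at chr2:163336242-163397993 on the minus strand. The uptake genes are Atp2a2 at chr5:122453513-122502225 on the minus strand and Pln at chr10:53337667-53345987 on the plus strand. The entry and exit genes are Cacna1c at chr6:118587240-119196418 on the minus strand, Cacnb2 at chr2:14603088-14987908 on the plus strand and Slc8a1 at chr17:81373105-81738377 on the minus strand. Camk2d lies at chr3:126596302-126846326 on the plus strand. Values are per gene over all its counted exons.

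Promoter sequences from RefSeq (GRCm38.p6) were matched by symbol for 8 of the 10 genes, with 12 start sites in all. Those of Pln and Slc8a1 are shown because these genes bracket the results below: Pln was the member with the largest fall, and Slc8a1 the member that rose at 24 h and was called below sham at no time. Each runs 5′ to 3′ on the gene's own strand, upstream of the start site, at chr10:53337436-53337666 (plus strand) for Pln and chr17:81738388-81738637 (minus strand) for Slc8a1. The Pln sequence shows 231 of the 250 upstream bases searched and stops short of the RefSeq start at chr10:53337686, where annotated exon bases begin. Capitals mark a match to the GATA word AGATAA on either strand.

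Pln: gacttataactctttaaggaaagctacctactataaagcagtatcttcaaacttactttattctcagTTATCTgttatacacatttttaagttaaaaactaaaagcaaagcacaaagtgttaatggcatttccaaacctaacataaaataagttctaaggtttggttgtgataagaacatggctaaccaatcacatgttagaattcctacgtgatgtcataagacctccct

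Slc8a1: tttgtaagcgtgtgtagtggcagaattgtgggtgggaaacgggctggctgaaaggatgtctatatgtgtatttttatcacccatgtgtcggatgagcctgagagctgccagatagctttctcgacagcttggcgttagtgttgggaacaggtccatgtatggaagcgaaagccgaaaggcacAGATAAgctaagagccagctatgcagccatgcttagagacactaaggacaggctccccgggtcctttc

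Of the 12 promoters, the Pln and Slc8a1 promoters were the 2 with the GATA word, which begins 183 bases upstream of the RefSeq start in Pln (on the reverse strand) and 68 bases upstream in Slc8a1. The word was present in 10.0% of 32851 promoters over the same 250 upstream bases. The E-box CANNTG was found in 11 of the 12 promoters (Camk2d was without it) against 66.2% of all. These 12 windows come from 8 genes and are not separate. The Jph2 start sites at chr2:163397993 and chr2:163397973 share the same E-box, and Cacna1c and Cacnb2 also have several windows. Neither a MEF2-type word (CTA and TAG with any 4 bases between; 3.2% of all) nor the M-CAT word CATTCC (12.6% of all) was found in these 12 windows, both strands searched. These matches describe letters only. The gene that fell most and the gene that did not fall both carry the GATA word.

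Libraries held 18199172 to 25062351 counts, and all 10 members passed the filter on low counts, as did 16311 genes in all. Levels are CPM (counts scaled to a common library total) after TMM scaling, which adjusts each total for its composition, and are rounded to 3 significant digits. A gene is called changed when its edgeR quasi-likelihood adjusted p, corrected over all 16311 genes, is under 0.05. Contractile genes checked the tissue label: the summed level of 10 of them (Myh6, Myl2, Ttn and others) was 68200 to 74100 CPM in sham and 18000 to 24100 CPM at 72 h. Over the same span 7 fibroblast markers summed to 794 to 902 CPM and then 12400 to 16000 CPM, and 6 macrophage markers to 289 to 333 CPM and then 3400 to 4520 CPM. At 6 h the 3 libraries differed in other cell types: 6 neutrophil markers summed to 748, 268 and 101 CPM in replicates 1, 2 and 3, against 3.03 to 4.56 CPM in sham, and all 6 were called higher. The 6 atrial markers summed to 583, 115 and 288 CPM, against 92.8 to 211 CPM in sham. Nppa alone gave 391, 112 and 285 CPM of these sums, and its mean was also 668 CPM at 24 h and 608 CPM at 72 h. In 6 h replicate 1, Myl7, Sln and Bmp10 stood at 49.3, 42.6 and 21.2 CPM, while replicates 2 and 3 and sham held at most 0.363, 0.311 and 0 CPM of these genes. Calls of members at 6 h that change without replicate 1 are given below with and without it. The shares of all genes and the counts in other lists at 6 h include it. Without it, 17.5% of the genes tested were called at 6 h, against 28.4% with it. In bulk tissue, fewer cardiomyocytes and less RNA per cardiomyocyte cannot be told apart. With library totals in place of TMM, the typical gene itself shifts against sham (median log2 change -0.12 after 6 h, 0.2 after 24 h, 0.61 after 72 h), so every change below is relative to the TMM scale. Of the genes called at these times, TMM puts 57.2%, 54% and 51.4% above sham, and library totals put 40.6%, 75.5% and 79.9% there.

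The calcium cycling transcripts fell late and nearly together. No member was called at 10 min or 1 h, 1 fell at 6 h, 7 fell and 1 rose at 24 h, and 9 fell at 72 h. Of all genes, 0.0736% were called at 10 min, 0.294% at 1 h and 12.2% lower at 6 h. At 24 h 20.2% were called lower and 23.7% higher, and at 72 h 32.2% lower. The 1 fall at 6 h and the 1 rise at 24 h do not exceed these shares. The 7 falls at 24 h were 3 under library totals, limma on FPKM, a fit of the 2 groups alone or without 24 h replicate 3. At 72 h the 9 falling genes had log2 changes of -2.18 (Pln) to -0.59 (Camk2d), and 8 of them were at less than 50% of sham (2 under scaling by library totals or limma on FPKM). The median log2 change of the 10 members was 0.14 at 10 min, 0.09 at 1 h, -0.14 at 6 h, -0.46 at 24 h and -1.38 at 72 h, beside medians of all genes between -0.01 and 0.03. Together the 10 genes took 1.4% ± 0.0174 (SD, n = 3) of all counts in sham and 0.64% ± 0.0571 (n = 3) at 72 h. All 10 members passed the edgeR F test over the 6 groups, as did 78.4% of all genes. Slc8a1 did so with an adjusted p of 0.0452 and missed it under 13 of 25 other settings. Camk2d missed it under library totals and limma on FPKM (adjusted p up to 0.443).

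**Figure D1:**
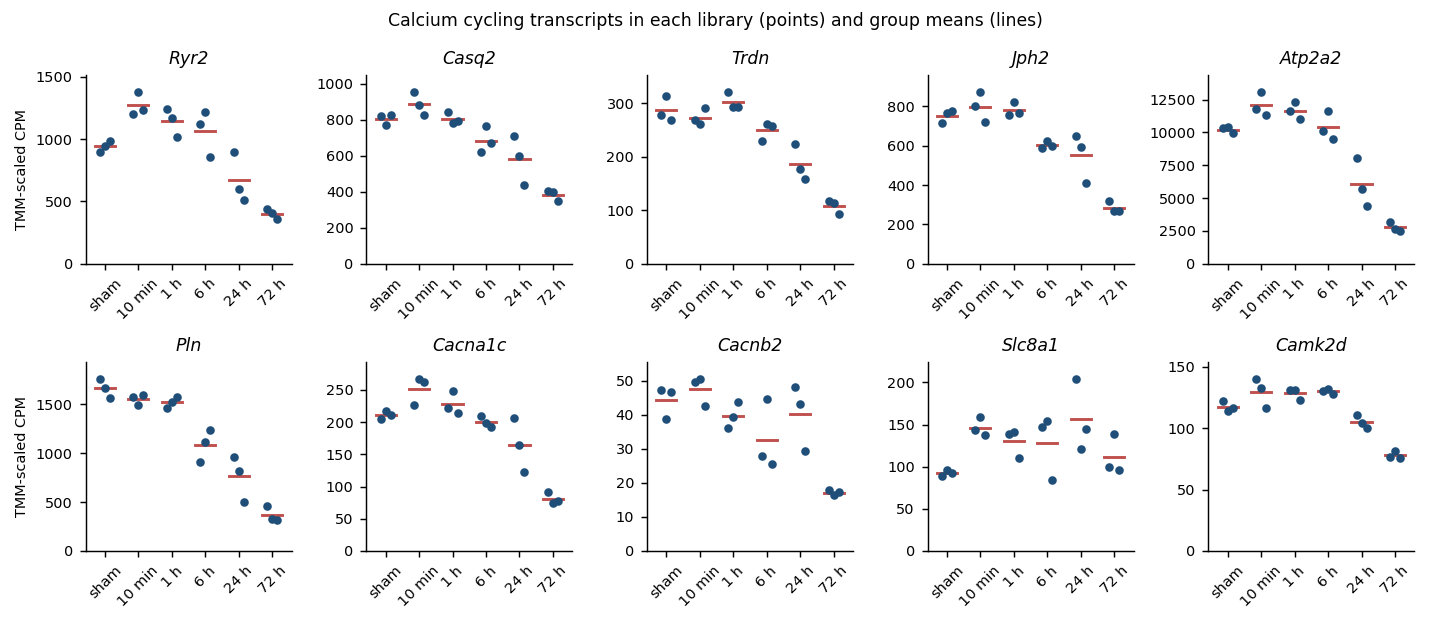
TMM-scaled CPM (linear axis from 0) of the 10 genes by group, with 1 point per library (n = 3) and a line at each group mean. In 9 panels the 3 libraries at 72 h lie below all sham libraries, and in the Slc8a1 panel they overlap sham, at 96 to 139 CPM against 88.5 to 96.6 CPM.

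Among the release genes, Ryr2 encodes the ryanodine receptor, the channel through which the store empties. Its level in the 3 sham libraries was 898, 948 and 985 CPM, at 10 min 1200, 1380 and 1230 CPM, and at 1 h 1240, 1170 and 1020 CPM. It was then 1120, 1220 and 854 CPM at 6 h, 895, 600 and 513 CPM at 24 h, and 441, 403 and 359 CPM at 72 h. The early libraries all lay above sham, those at 24 h and 72 h all below it, and those at 6 h overlapped it. At 72 h Ryr2 was at 42.5% of sham (log2 change -1.23, SE 0.17, edgeR adjusted p = 4.17e-06). The fall at 24 h (-0.5, adjusted p = 0.0236) was not called without sham replicate 2 (0.0564), sham replicate 3 (0.0698), 24 h replicate 2 (0.0856) or 24 h replicate 3 (0.12), nor under library totals (0.11), with limma on FPKM (0.0984) or in a fit of the 2 groups alone (0.0865).

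Casq2 encodes calsequestrin, the protein that binds calcium inside the store. It measured 820, 772 and 825 CPM in sham, 711, 599 and 437 CPM at 24 h and 401, 396 and 347 CPM at 72 h. Both later groups lay wholly below sham. At 72 h its log2 change was -1.08 (SE 0.14, edgeR adjusted p = 1.68e-06), and at 24 h it was -0.47 (SE 0.14, adjusted p = 0.0102). The 24 h call was lost without 24 h replicate 3 (-0.3, adjusted p = 0.0537), under library totals (0.0926), with limma on FPKM (0.0798) and in a fit of the 2 groups alone (0.0707).

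Trdn encodes triadin, which ties calsequestrin to the ryanodine receptor. Its sham libraries held 278, 314 and 269 CPM, its 24 h libraries 224, 178 and 158 CPM and its 72 h libraries 118, 114 and 93.6 CPM. Again no library of these later groups reached sham. Trdn was at 65% of sham at 24 h (log2 change -0.62, SE 0.12, edgeR adjusted p = 0.00058) and at 37.8% at 72 h (-1.4, SE 0.12, adjusted p = 1.61e-08).

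Jph2 encodes junctophilin-2, which holds the store membrane close to the surface membrane at the dyad. It measured 718, 768 and 775 CPM in sham, and at 6 h 589, 623 and 600 CPM, all below sham though not called (log2 change -0.32, edgeR adjusted p = 0.0819). At 24 h the libraries held 648, 592 and 412 CPM and at 72 h 319, 268 and 267 CPM. Jph2 fell by 0.45 on the log2 scale at 24 h (SE 0.13, adjusted p = 0.0108) and by 1.4 at 72 h (SE 0.14, adjusted p = 5.29e-08). The 24 h call was lost without 24 h replicate 3 (-0.28, adjusted p = 0.0556), under library totals (0.115), with limma on FPKM (0.0953) and in a fit of the 2 groups alone (0.0737).

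Of the uptake pair, Atp2a2 encodes SERCA2, the pump that refills the store, and was the most abundant of the 10 transcripts in all 6 groups. Its sham libraries held 10300, 10400 and 9960 CPM, those at 10 min 11800, 13100 and 11300 CPM and those at 6 h 10100, 11600 and 9510 CPM. At 24 h the level was 8060, 5660 and 4410 CPM, and at 72 h 3170, 2630 and 2520 CPM. Libraries at 10 min were all above sham, those at 6 h overlapped it and the later ones were all below. Atp2a2 was at 59.1% of sham at 24 h (log2 change -0.76, SE 0.17, edgeR adjusted p = 0.00173) and at 27.1% at 72 h (-1.88, SE 0.18, adjusted p = 3.26e-08). In GENCODE M21, 1 gene model on the other strand (Gm43361) overlaps exons of Atp2a2.

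Pln encodes phospholamban, the small membrane protein that inhibits SERCA2 until it is phosphorylated. It measured 1760, 1670 and 1570 CPM in sham, 1580, 1490 and 1600 CPM at 10 min and 1460, 1520 and 1580 CPM at 1 h. It then measured 908, 1120 and 1240 CPM at 6 h, 964, 821 and 506 CPM at 24 h, and 458, 331 and 318 CPM at 72 h. From 6 h onward all libraries lay below sham, and Pln was the 1 member called at 6 h (log2 change -0.61, SE 0.18, edgeR adjusted p = 0.0182). That call was lost without sham replicate 1 (-0.57, adjusted p = 0.0631) or without 6 h replicate 1 (-0.5, adjusted p = 0.0986), the library with the atrial transcripts and the highest neutrophil markers, whose part in it was not tested. The fall reached -1.13 at 24 h (SE 0.19, adjusted p = 0.000142) and -2.18 at 72 h (SE 0.19, adjusted p = 1.62e-08), 22.1% of sham. Exons of Pln overlap those of Cep85l on the other strand, and the use of strand in counting is not given in the sources used here, so reads of these genes cannot be told apart.

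Within each library, the Pln level per base was 35.9% of the Atp2a2 level in sham (geometric mean, libraries 34.8 to 37.8%). It was lower in all libraries of each later group, at 28.5% at 10 min, 28.8% at 1 h, 23.0% at 6 h, 27.7% at 24 h and 29.1% at 72 h. A permutation test over the 18 libraries gave p = 0.0154 for a difference among groups (0.0206 adjusted over 4 ratios). The adjusted p rose to 0.0804 without sham replicate 1, 0.0547 without sham replicate 2 and 0.0633 without 6 h replicate 1. An exact permutation test of 3 libraries against 3 cannot go below 0.1, which each of these groups gave against sham.

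At the surface membrane, Cacna1c encodes the pore of the L-type channel. Its sham libraries held 205, 217 and 211 CPM, those at 10 min 226, 267 and 263 CPM, those at 24 h 206, 165 and 122 CPM and those at 72 h 92.2, 74.5 and 76.8 CPM. The 10 min libraries were all above sham without a call (log2 change 0.26, edgeR adjusted p = 0.792), and the 72 h libraries all below it (-1.38, SE 0.14, adjusted p = 1.06e-07). The call at 24 h (-0.36, adjusted p = 0.0424) came with overlapping groups. It was lost in 12 of 26 other settings, among them leaving out any 1 sham library (adjusted p 0.0737, 0.106 and 0.087), 24 h replicate 2 (0.0799) or 24 h replicate 3 (0.234), as well as 10 min replicate 2 or 3, 1 h replicate 1 or 72 h replicate 3 (0.0502 to 0.0526).

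Cacnb2 encodes the channel's main cardiac beta subunit, which brings the pore to the membrane, and it had the lowest level of the 10 genes. It measured 47.4, 38.7 and 46.7 CPM in sham, 27.9, 44.5 and 25.5 CPM at 6 h and 48.3, 43.3 and 29.3 CPM at 24 h, groups that overlap. At 72 h it measured 17.8, 16.4 and 17.3 CPM, all below every other library of the series. Its log2 change was -0.13 at 24 h (edgeR adjusted p = 0.58) and -1.37 at 72 h (SE 0.19, adjusted p = 6.59e-06). In GENCODE M21, 3 antisense or pseudogene models overlap its exons on the other strand.

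Slc8a1 encodes NCX1, the exchanger that trades calcium for sodium across the surface membrane, and it moved apart from the rest. Its sham libraries held 88.5, 96.6 and 92.9 CPM, those at 10 min 143, 159 and 137 CPM and those at 1 h 139, 141 and 110 CPM. It measured 147, 154 and 84.4 CPM at 6 h, 204, 121 and 145 CPM at 24 h and 99.5, 139 and 96 CPM at 72 h. Groups at 10 min, 1 h and 24 h were wholly above sham, and those at 6 h and 72 h overlapped it.

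The Slc8a1 rise was called at 24 h (log2 change 0.76, SE 0.22, edgeR adjusted p = 0.00959), and not without 24 h replicate 1 (0.0553). The log2 change was 0.66 at 10 min (adjusted p = 0.477), 0.49 at 1 h (0.843), 0.47 at 6 h (0.112) and 0.27 at 72 h (0.288). Leaving out 6 h replicate 3, the lowest library, gave 0.7 at 6 h with a call (0.0108). Scaling by library totals gave 0.85 at 72 h, with a call (0.00123). The gene length behind the authors' FPKM values is 2934 bp for Slc8a1, against 18807 bp of exons in GENCODE M21, 15963 bp of it in 1 exon. For the other 9 members both lengths are equal. The Slc8a1 counts therefore come from a shorter gene model than this annotation, and Gm11096 and an antisense gene overlap it. What these do to the Slc8a1 values was not tested.

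The Slc8a1 level per base was 1.88% of the Atp2a2 level in sham (libraries 1.79 to 1.93%), 5.42% at 24 h (4.43 to 6.83%) and 8.25% at 72 h (6.5 to 10.9%). The groups differed by the permutation test over 18 libraries (p = 1e-05, the smallest that 100000 resamples can give, and 4e-05 adjusted over 4 ratios). Of the other 2 ratios, Casq2 to Ryr2 differed among groups (adjusted p = 0.0104), at a mean log2 ratio of 3.17 in sham, 2.77 at 6 h and 3.33 at 72 h. Its libraries lay wholly below sham at 10 min, 1 h and 6 h and overlapped sham at 24 h and 72 h. Cacnb2 to Cacna1c did not pass (permutation test, adjusted p = 0.0801), with a mean log2 ratio of -1.58 in sham, -1.98 at 6 h, -1.35 at 24 h and -1.56 at 72 h.

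**Figure D2:**
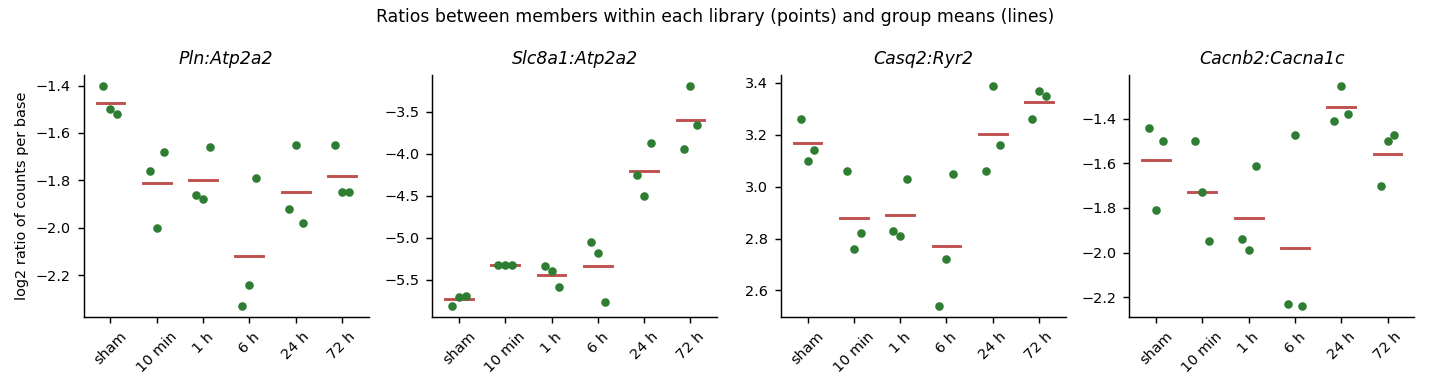
Log2 ratio of counts per base for 4 pairs of members in each library (points, n = 3 per group), with a line at each group mean. Axes do not start at 0 and differ between panels; Slc8a1:Atp2a2 climbs from a mean of -5.73 in sham to -3.6 at 72 h, and Pln:Atp2a2 lies below sham in all 15 later libraries.

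Camk2d encodes the delta form of CaMKII, the main form in heart muscle. It measured 122, 114 and 116 CPM in sham, 131, 131 and 123 CPM at 1 h and 130, 132 and 128 CPM at 6 h, both later groups wholly above sham and neither called. It measured 111, 104 and 99.8 CPM at 24 h, all below sham (log2 change -0.17, edgeR adjusted p = 0.105). At 72 h it measured 76.5, 81.7 and 75.6 CPM, and the fall was called (-0.59, SE 0.08, adjusted p = 3.96e-06). Scaling by library totals left a log2 change of -0.01 at 72 h (adjusted p = 0.944), so the Camk2d call rests on the TMM scale.

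By time, 0 of 10 members were called by edgeR at 10 min, beside 0.0736% of all genes, with 2 at an unadjusted p under 0.05 (Ryr2 and Slc8a1), where 7.01% of all genes were. DESeq2 and limma also called 0 members, and a fit of the 10 min and sham libraries alone called both Ryr2 (adjusted p = 0.00563) and Slc8a1 (0.000126), beside 2.48% of the genes it tested. Ryr2, Atp2a2, Cacna1c and Slc8a1 had all 10 min libraries above sham, 4 of 10 members against 11% of all genes. At 1 h edgeR again called 0 members (0.294% of all genes), as did DESeq2 and limma. Slc8a1 was the 1 member at an unadjusted p under 0.05, where 5.51% of all genes were, and the fit of those 2 groups alone called it (adjusted p = 0.0148), beside 1.31% of the genes it tested. Here Ryr2, Atp2a2, Slc8a1 and Camk2d lay wholly above sham, 4 of 10 members against 8.25% of all genes. From 10 min to 1 h no member changed by edgeR, DESeq2 or limma (0 at an unadjusted p under 0.05), as against 0.307% of all genes called and 7.43% at that unadjusted p.

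At 6 h, 1 of 10 members was called lower (Pln), close to the 12.2% of all genes called lower. Casq2, Trdn, Jph2 and Pln had no library reaching sham, 4 of 10 members against 21.2% of all genes. The 6 h count was 0 without sham replicate 1 or 6 h replicate 1. It was 2 lower without 6 h replicate 2 or 24 h replicate 1, and 3 lower without 24 h replicate 3. Without 6 h replicate 3 it was 1 lower (Pln) and 1 higher (Slc8a1). In these fits 17.5% to 31.8% of the genes tested were called in either direction. Against 1 h, Jph2 was the 1 member called lower (log2 change -0.37, edgeR adjusted p = 0.049; 10% of all genes were called lower). That call was lost when any 1 library of sham, 10 min, 1 h or 6 h, 24 h replicate 2, or 72 h replicate 2 or 3 was left out, and the count rose to 3 without 24 h replicate 1 and 2 without 24 h replicate 3 or 72 h replicate 1.

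At 24 h, 7 of 10 members were called lower (Ryr2, Casq2, Trdn, Jph2, Atp2a2, Pln and Cacna1c), where 20.2% of all genes were. One member, Slc8a1, was called higher (1 of 10, against 23.7% of all genes). All members called lower except Cacna1c, and also Camk2d, had no library reaching sham, 7 of 10 members against 25.7% of all genes. The 24 h mice differed most among themselves: replicate 1 was above its group mean in 10 of 10 members and replicate 3 in 0 of 10, at median deviations of 0.34 and -0.39 (log2). In those libraries the mean log2 CPM of the contractile genes was 11.78 and 11.26 (11.8 in replicate 2), and the summed level of 6 neutrophil markers 173 and 744 CPM (43 CPM in replicate 2). The part of these in the 24 h results was not tested. Without 24 h replicate 3 the calls were 3 lower and 1 higher, as they were under scaling by library totals. In either direction, these settings called 32.7% and 45.1% of the genes tested, so 4 of 10 members was near the share of all genes. Trdn, Atp2a2 and Pln were called lower at 24 h in all 26 other settings.

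Against 6 h, 5 of 10 members were called lower at 24 h (Ryr2, Trdn, Atp2a2, Pln and Camk2d), where 13.7% of all genes were. Atp2a2 had the largest step, a log2 change of -0.78 (SE 0.17, edgeR adjusted p = 0.00263). A fit of the 6 h and 24 h libraries alone called 0 of them, and 3 were called without 24 h replicate 2. In either direction, these fits called 6.91% and 21.6% of the genes tested. The Pln call (adjusted p = 0.0449) was lost in 18 of 26 other settings and the Trdn call in 6. Under library totals or limma on FPKM, Atp2a2 was the 1 of the 5 still called lower, with Cacnb2 and Slc8a1 called higher. These settings called 42.2% and 39.7% of all genes in either direction.

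At 72 h, 9 of 10 members were called lower and 9 lay wholly below sham, all but Slc8a1 in both cases, where 32.2% and 36.5% of all genes did so. The count of 9 was the same in all 26 other settings, though under library totals and limma on FPKM it held 8 falling genes and a rising Slc8a1 in place of Camk2d. From 24 h to 72 h, 9 of 10 members were called lower (26.1% of all genes), again all but Slc8a1 (log2 change -0.49, edgeR adjusted p = 0.0656). Slc8a1 was also called under the replicate block and without 6 h replicate 3, 24 h replicate 2 or 72 h replicate 2. Under library totals or limma on FPKM 6 members were called, and Ryr2, Casq2 and Camk2d were not. These settings called 54.8% and 57% of all genes in either direction. For 9 of 10 members, the step from 24 h to 72 h was the largest of the 5 consecutive steps in log2 size. It was also the step with most genes called in either direction: 50.5%, against 27.8% from 6 h to 24 h and 24.5% from 1 h to 6 h. The share of all genes with their largest step there was not counted. Slc8a1 had its largest between sham and 10 min. Without 24 h replicate 1, the 24 h mean was 556 CPM for Ryr2 and 5040 CPM for Atp2a2. On the log2 scale, the fall of these 2 genes from 6 h (1060 and 10400 CPM) was then larger than the fall to 72 h (401 and 2770 CPM). In CPM the fall from 6 h was the larger with all 24 h libraries as well (means 669 and 6040 CPM).

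**Figure D3:**
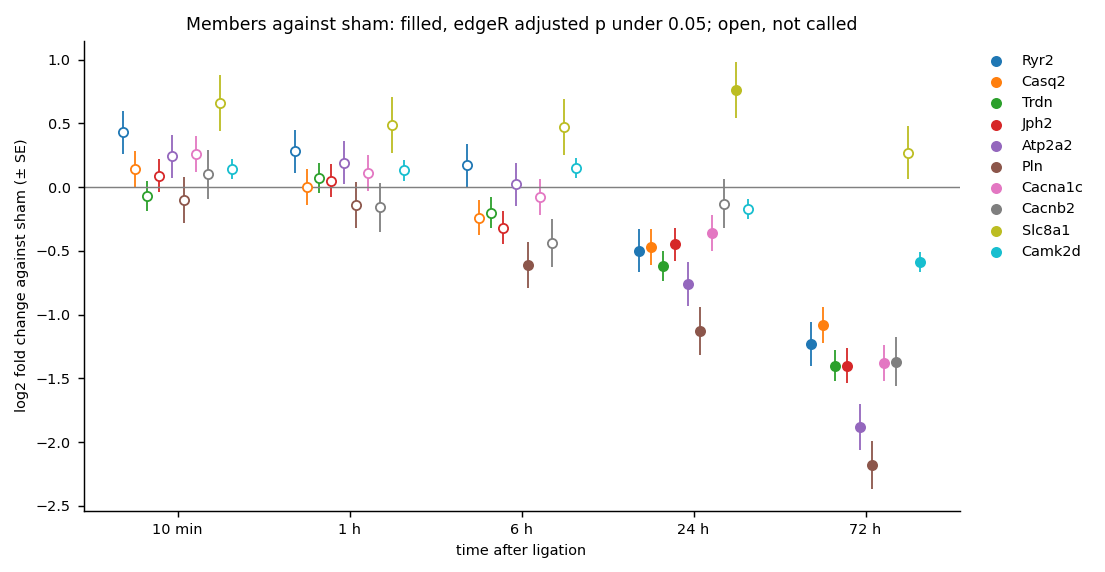
Log2 fold change against sham (edgeR, bars are ± SE) of each member at the 5 times after ligation; filled points were called and open points were not. Points lie between -0.16 and 0.66 at 10 min and 1 h, and at 72 h between -2.18 (Pln) and 0.27 (Slc8a1).

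Compared per kilobase of counted gene length, the sham levels ran from Atp2a2 (1680 CPM per kb) through Pln (604), Casq2 (294) and Jph2 (177 CPM per kb) to a close trio. That trio was Ryr2 (32.8 CPM per kb), Slc8a1 (31.6) and Trdn (30.7), whose libraries overlapped. Below them came Cacna1c (9.96 CPM per kb), Camk2d (5.23) and Cacnb2 (3.35), each apart from its neighbours. At 72 h the order was Atp2a2 (456 CPM per kb), Casq2 (139), Pln (134), Jph2 (66.9), Slc8a1 (38.0), Ryr2 (13.9), Trdn (11.6), Cacna1c (3.83), Camk2d (3.47) and Cacnb2 (1.3). Pln now overlapped Casq2, Trdn overlapped Ryr2, and Camk2d overlapped Cacna1c. Slc8a1 was clear of Trdn from 10 min onward (46.6 to 54.1 against 28.0 to 31.1 CPM per kb at 10 min). It moved clear of Ryr2 at 24 h and stayed so at 72 h. The place of Slc8a1 depends on the shorter length given above.

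Across the 18 libraries, the log2 CPM of the 9 members other than Slc8a1 correlated with each other at Pearson r of 0.78 to 0.98 in 36 pairs. Pairs with Slc8a1 gave -0.02 to 0.3 in 9 pairs. Against the mean profile of the other members, r was 0.98 for Atp2a2 and Cacna1c, 0.87 for Cacnb2 and 0.18 for Slc8a1. These are descriptions over libraries that share their groups and their scaling. By the same measure, the other genes most like the mean profile of the 10 members, out of 11706 ranked, were Tmod1 (r = 0.995), Mfn2 (0.991), Dlat (0.991), Msi2 (0.989) and Tcaim (0.988). Tmod1 encodes tropomodulin-1, which caps thin filaments, Mfn2 the mitochondrial fusion protein mitofusin-2 and Dlat a subunit of pyruvate dehydrogenase. Least like it were Limd2 (r = -0.986), Tmem165 (-0.978) and Aim2 (-0.978).

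Set against the mean log2 CPM of the 10 contractile genes in the same library, Pln lay below its sham position in all 72 h libraries (mean log2 difference -0.45), 1 of 10 members against 1.88% of all genes. Its mean difference was -0.5 at 6 h and -0.48 at 24 h. Atp2a2 overlapped its sham position at 72 h (-0.15). The other 8 members lay wholly above theirs: Trdn and Jph2 by 0.33, Cacna1c by 0.36, Cacnb2 by 0.38, Ryr2 by 0.5, Casq2 by 0.66, Camk2d by 1.15 and Slc8a1 by 1.99. These 8 of 10 stand beside 90.9% of all genes wholly above sham on this scale, so their place above it does not set them apart. All 10 contractile genes were called lower at 72 h, with log2 changes of -2.32 to -1.19 (median -1.56). The change of Pln against sham (-2.18) lies within that range, so Pln fell below their mean and not beyond all of them. Ryr2, Casq2, Atp2a2, Cacna1c, Cacnb2, Slc8a1 and Camk2d also lay above their sham positions in all 10 min libraries, 7 of 10 members against 17.4% of all genes. No test was made on these differences.

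**Figure D4:**
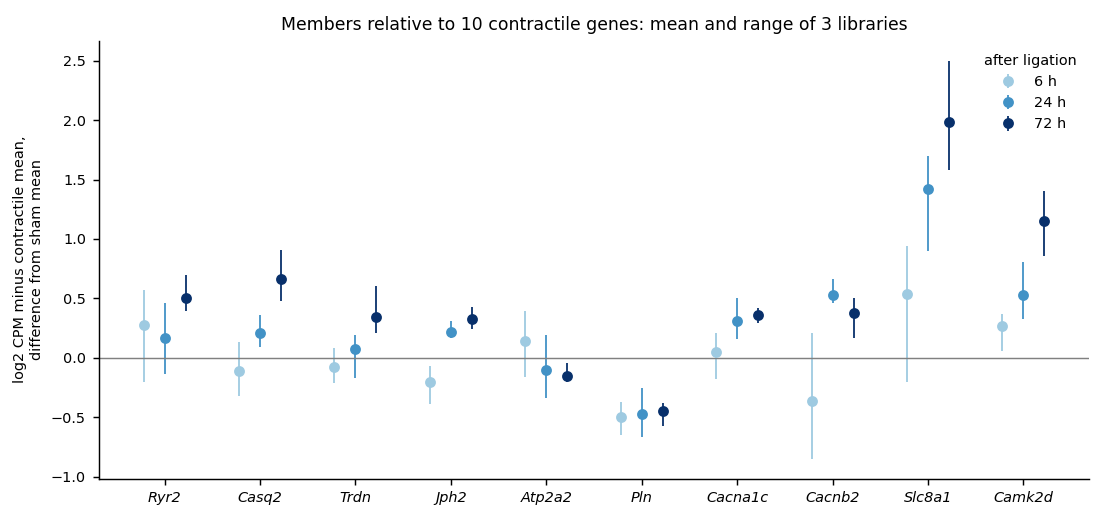
Log2 CPM of each member minus the mean log2 CPM of 10 contractile genes, as the difference from the sham mean, at 6, 24 and 72 h; points are means and bars the range of 3 libraries. Pln lies below 0 at all 3 times and Slc8a1 reaches 1.99 at 72 h.

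The wider calcium pathway was read from 9 lists by role with 95 genes, of which 92 were matched and 89 passed the filter. By edgeR, 1 rose at 1 h, 13 rose and 9 fell at 6 h, 22 rose and 24 fell at 24 h, and 26 rose and 46 fell at 72 h. At 6 h, 14.6% of these genes rose and 10.1% fell, beside 16.3% and 12.2% of all genes tested. At 24 h, 24.7% rose and 27% fell, beside 23.7% and 20.2% of all genes. At 72 h, 29.2% rose and 51.7% fell, beside 34.2% and 32.2% of all genes. Their median log2 change at 72 h was -0.39, beside -1.38 for the 10 members and 0.03 for all genes.

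Around the L-type channel, 4 of 13 genes rose and 6 fell at 72 h. Gem, a small GTPase that inhibits the channel, was the 1 gene of these lists called at 1 h, at 4.13 ± 1.1 CPM in sham and 10.6 ± 1.31 CPM at 1 h (SD, n = 3; log2 change 1.36, edgeR adjusted p = 0.0204). The Gem call was lost in 4 of 6 fits that left out 1 sham or 1 h library (sham replicate 1 or 2, 1 h replicate 1 or 3; adjusted p up to 0.176). Its relative Rrad rose at 6 h from 199 to 552 CPM (1.47, adjusted p = 0.000332) and measured 149 CPM at 72 h (-0.41, adjusted p = 0.13), a difference that turned to 0.18 under scaling by library totals. Cacnb3, another beta subunit, rose at 72 h from 5.43 to 21.3 CPM (1.97, adjusted p = 2.08e-08) while the member Cacnb2 fell from 44.3 to 17.2 CPM.

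Of 15 genes of the ryanodine receptor complex and the store, 8 rose and 5 fell at 72 h. Hrc, a histidine-rich calcium-binding protein of the store, fell from 1020 ± 62.6 CPM in sham to 172 ± 48.7 CPM (SD, n = 3; log2 change -2.57, edgeR adjusted p = 2.06e-09), a larger change than that of Casq2 or Trdn in value. Calm2, 1 of the calmodulin genes, rose from 104 to 158 CPM at 6 h (0.61, adjusted p = 0.000104) and to 240 CPM at 72 h (1.21, adjusted p = 2.41e-09). Of 6 dyad scaffold genes, 5 fell and 1 rose at 72 h. The riser was Bin1, which shapes membrane tubules, from 11.6 to 53.9 CPM (2.22, adjusted p = 1.49e-09), in contrast to the fall of Jph2. Cav3, caveolin-3, rose to 107 CPM at 6 h from 72.2 CPM (0.57, adjusted p = 0.00428) and fell to 39 CPM at 72 h (-0.89, adjusted p = 1.36e-05). The 72 h call of Cav3 was lost under library totals and limma on FPKM (log2 change as small as -0.3, adjusted p up to 0.0631).

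Of 4 SERCA isoforms and regulators tested, 2 fell and 0 rose at 72 h. They were S100a1, a calcium sensor that binds SERCA2 and the ryanodine receptor (543 to 178 CPM, log2 change -1.61, edgeR adjusted p = 1.83e-08), and Atp2a3, the SERCA3 pump (26 to 14.7 CPM, -0.82, adjusted p = 3.93e-05). The Atp2a3 call was lost under library totals and limma on FPKM (log2 change as small as -0.19, adjusted p up to 0.107). Of 8 genes of pumps and exchangers at the surface, 5 fell and 2 rose.

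Of 14 genes of CaMKII, protein kinase A and protein phosphatase 1, 10 fell and 2 rose at 72 h. Ppp1r3a, a phosphatase targeting subunit, fell from 130 to 37.3 CPM (log2 change -1.8, edgeR adjusted p = 1.42e-08). Ppp1r2 rose at 6 h from 126 to 210 CPM (0.74, adjusted p = 2.09e-05), and its fall at 72 h (-0.34, adjusted p = 0.00274) turned to 0.25 under scaling by library totals. That setting and limma on FPKM (0.24) both called Ppp1r2 higher at 72 h (adjusted p = 0.0225 and 0.0174). In the calcineurin and NFAT list, 4 of 10 genes rose and 3 fell. Rcan1, a calcineurin regulator and target of calcineurin signalling, rose from 60.6 ± 1.51 CPM to 348 ± 86 CPM at 6 h (SD, n = 3; 2.52, adjusted p = 7.11e-08) and stood at 141 CPM at 72 h (1.22, adjusted p = 4.23e-06). Rcan2 fell at 72 h from 346 to 146 CPM (-1.24, adjusted p = 5.3e-08).

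Among 11 genes of IP3 receptors and store-operated entry, 5 fell and 3 rose at 72 h. Of 8 mitochondrial calcium genes, 5 fell and 2 rose. Mcub, the dominant-negative subunit of the mitochondrial uniporter, rose from 2.2 ± 0.629 to 14.9 ± 1.39 CPM (SD, n = 3; log2 change 2.75, edgeR adjusted p = 3.22e-08). Mcu, the pore of the uniporter, measured 16.4 CPM in sham and 14.6 CPM at 72 h (-0.16, adjusted p = 0.251), and scaling by library totals gave 0.43. That setting and limma on FPKM (0.31) both called Mcu higher (adjusted p = 0.00468 and 0.00521). Macrophage and fibroblast markers rose over the same time, by medians of 3.66 and 4.71 on the log2 scale at 72 h. Their part in the rises of Bin1, Mcub and Cacnb3 was not tested.

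**Figure D5:**
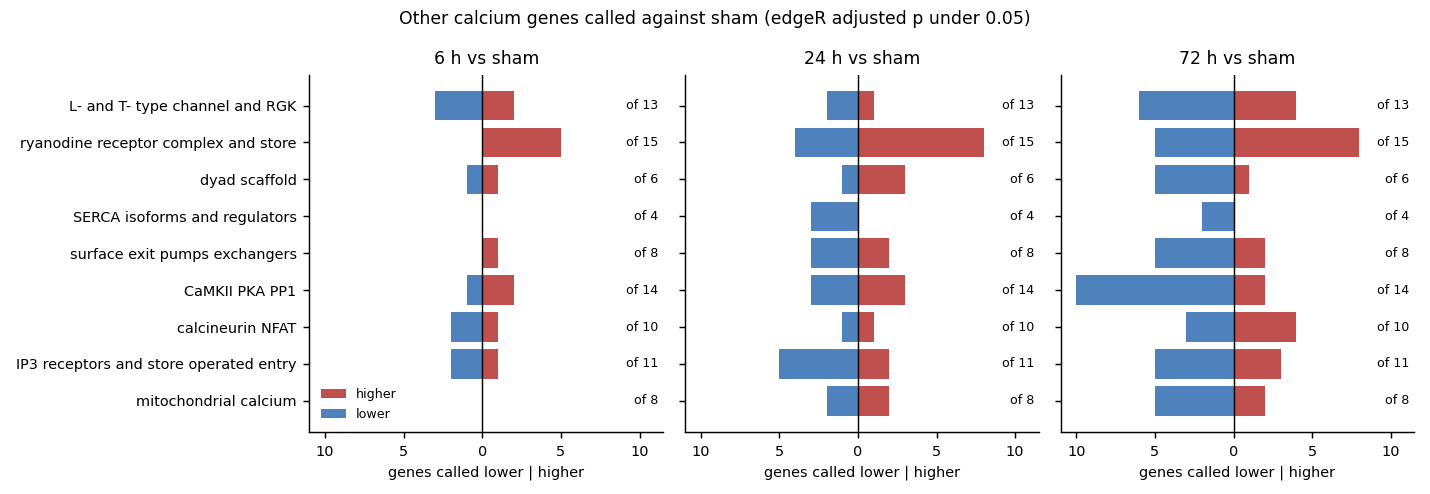
Number of other calcium genes called lower (left, blue) and higher (right, red) than sham by edgeR at 6, 24 and 72 h in 9 lists by role, with the number tested at the right. Calls in both directions are seen in 8 of 9 lists at 72 h.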

How the data were processed

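The authors deposited read counts per Ensembl gene and FPKM values for each of 18 libraries. Per the submitters' processing notes, cutadapt 1.18, HISAT2 2.1.0, featureCounts and mm10 were used; the gene annotation and the use of strand are not given in the sources used here. Per the labels' protocols, poly(A) RNA was selected with oligo(dT) beads, and nothing describes molecular identifiers, so reads are not all independent molecules. The deposited counts in the series table and in the sample tables differed in 0 values, and 0 columns could not be matched. The deposited FPKM columns of 6 h replicates 2 and 3 hold each other's counts, within 1 group. Lengths behind the FPKM values were whole (within 0.01 bp) for 100% of the 10452 genes that reached 50 counts in all libraries, and equalled the exon union of GENCODE M21 for 28019 of 30489 genes (91.9%).

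Counts were fitted in edgeR 4.0.16 (R 4.3.3) with TMM scaling, filterByExpr (14272 of 30583 genes removed) and robust quasi-likelihood tests, 1 mean for each of 6 groups, with Benjamini-Hochberg adjustment over 16311 genes and a threshold of 0.05. The biological coefficient of variation was 0.149. Library totals were 18199172 to 25062351 counts, and the number of 3 mice a group limits the precision of each mean. Comparisons with sham share the 3 sham libraries. Ratios between members were tested by permutation (100000 resamples). Alternatives were DESeq2 1.42.0, limma 3.58.1 on log2(FPKM + 1), other scalings and filters, a fit of the 2 groups compared, a replicate block and leaving out each library. The edgeR scripts were tested on simulated data.

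Members and lists were chosen with earlier results of these data known. Named are all 10 members, the gene with the smallest adjusted p at 6 h and at 72 h in each of 9 lists, any list gene called at 10 min or 1 h, and the 5 most and 3 least similar genes (mean count 50 or more, by Pearson r). Some genes that this rule names are not reported here. The 4 promoter words were also chosen with results known. RefSeq promoters come from GRCm38.p6.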

Additional observations from a re-analysis of the deposited data

Results flagged for a closer look

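The values of 4 members lay wholly above sham at an early time and wholly below it at 72 h. Of all genes, 11% lay wholly above sham at 10 min, 8.25% at 1 h, and 36.5% wholly below it at 72 h. The share of all genes with both was not counted, so how unusual these members are cannot be told. From 10 min to 72 h the log2 change was -1.66 for Ryr2, -2.12 for Atp2a2 and -1.64 for Cacna1c. From 1 h to 72 h it was -0.72 for Camk2d. The genes and early times were picked for this pattern, so these values are a description, and the difference was not tested on other data. None of the early rises over sham was itself called in the fit of all groups.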

How the results depend on the processing

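Of 1888 single-gene comparisons under other settings, 44 lost the call, 23 gained one, 15 changed sign (log2 changes rounded to 2 decimals) and 1806 did none of these. Under library totals and limma on FPKM, Ppp1r2 at 72 h turned to 0.25 and 0.24, Mcu at 72 h to 0.43 and 0.31, Rrad at 72 h to 0.18 and 0.18, Atp2a2 at 6 h to -0.08 and -0.09, Cacnb2 at 24 h to 0.05 and 0.03, and Camk2d at 24 h to 0.03 and 0.02. Of these, Ppp1r2 and Mcu were called higher in both settings. Leaving out 1 library at a time turned Atp2a2 at 6 h without 6 h replicate 2 (range -0.06 to 0.09), S100a1 at 6 h without 6 h replicate 2 (-0.14 to 0.01) and Cacnb2 at 24 h without 24 h replicate 3 (upper end 0.05). The fit of only the 2 groups compared called 2 members at 10 min, 1 at 1 h, 2 at 6 h, 4 at 24 h, 2 between 1 h and 6 h, and 0 between 6 h and 24 h. Of the genes it tested, this fit called 2.48%, 1.31%, 28%, 37%, 22.4% and 6.91% in these comparisons. Library totals and limma on FPKM each called 3 at 6 h, 4 at 24 h, 3 between 1 h and 6 h and 3 between 6 h and 24 h (2 of these higher), and 6 between 24 h and 72 h in place of 9. Of all genes, library totals called 28.9%, 45.1%, 23.5%, 42.2% and 54.8% in these comparisons. With limma the shares were 25.3%, 43.8%, 20.4%, 39.7% and 57%. DESeq2 called 2 between 1 h and 6 h (24.1% of its genes), and the fit without a filter 3 between 6 h and 24 h (12.5%). The cause was not tested. Leaving out 1 library at a time gave 0 to 3 calls at 6 h, 4 to 8 at 24 h, 9 to 9 at 72 h, 0 to 3 between 1 h and 6 h and 3 to 7 between 6 h and 24 h. The share of genes called in these fits was 17.5% to 31.8%, 32.7% to 45.2%, 60.3% to 67.6%, 14.8% to 28.2% and 21.6% to 30.1%. The 72 h difference of log2 Pln:Atp2a2 ran from -0.37 to -0.27 and that of Cacnb2:Cacna1c from -0.09 to 0.1; the latter ratio passed without 6 h replicate 2 (adjusted p = 0.0072, permutation test). Whether replicate numbers pair the mice cannot be told from these values. Deviations of same-numbered libraries correlated at -0.26 to 0.25, with a median of 0.04 against -0.01 for different numbers. Of 18 libraries, 9 correlated best with their own number. The replicate block called 10 members from 24 h to 72 h in place of 9 and left the other counts of members unchanged. All members passed the filter on low counts, and each mean rests on 3 mice.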
